A study of Mus musculus with 5 samples.

Results

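SOX7-alone regions are stretches of the mouse genome that held a peak of SOX7-Dam and no peak of FLI1-Dam or ERG-Dam. The unique peaks of the 3 factor lists (mm9) were pooled, peaks sharing at least 1 bp were merged, and merged regions with SOX7 peaks only were kept. This gave 6377 SOX7-alone regions of 23972 merged regions in all (26.6%), and they held 63.6% of the 10029 SOX7 peaks. The members were selected on measured values, the peak positions of the 3 lists. In DamID a protein carries a bacterial DNA methylase, and GATC sites methylated beyond a Dam-only control show where the protein has been. The series has 5 libraries, 1 each for SOX7-Dam (cell line iSox7::Dam), FLI1-Dam (IFli1::Dam), ERG-Dam (iErg::Dam), the Dam-only control of SOX7 and the Dam-only control of FLI1 and ERG (iDam for both controls). All lines are derivatives of Ainv18, and all cells were endothelial precursor cells made from embryonic stem cells: FLK1+ cells of day 3 embryoid bodies spent 1 day in blast culture and were then sorted as cKIT+ TIE2+. SOX7 peaks were called against their own Dam-only library, and FLI1 and ERG peaks against the other, so the factor, the line and the control library cannot be told apart here. With 1 library per group there is no replicate check and no p-value, and all intervals below are 95% intervals for counting error only (exact binomial for shares, Poisson for reads). DamID does not measure expression, so the cell type could not be checked against its markers.

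SOX7 belongs to the SOXF proteins, together with SOX17 and SOX18, which act in the forming vessels and in blood emerging from endothelium. SOX proteins bind the minor groove of DNA through an HMG box, at sites with a core close to ACAAT. FLI1 and ERG are ETS proteins, which bind sites around a GGAA core and are known, like SOXF proteins, as regulators of endothelial genes.

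The lists say which gene a peak was assigned to but not where it lies relative to that gene, and no mm9 sequence was used here. The stretches shown are therefore the 250 bases before the annotated start of 5 genes that had SOX7-alone regions and were in neither other list, from the RefSeq promoter table (GRCm38.p6), and the DamID peaks need not lie in them. Robo4, Tie1, Gata2 and Mef2c are members of the endothelial, blood and cardiac gene lists described further on, and Creb3l4 had the densest SOX7-alone region. Capitals mark the letters ACAAT or, on the other strand, ATTGT. For genes with several starts the first entry of the table is given.
Robo4 (chr9:37401722-37401971, plus strand): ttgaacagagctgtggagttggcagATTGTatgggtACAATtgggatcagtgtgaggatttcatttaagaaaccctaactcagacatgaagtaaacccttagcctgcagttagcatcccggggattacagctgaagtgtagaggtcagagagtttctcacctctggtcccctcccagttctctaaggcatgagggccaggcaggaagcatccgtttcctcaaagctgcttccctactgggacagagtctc
Tie1 (chr4:118489850-118490099, minus strand): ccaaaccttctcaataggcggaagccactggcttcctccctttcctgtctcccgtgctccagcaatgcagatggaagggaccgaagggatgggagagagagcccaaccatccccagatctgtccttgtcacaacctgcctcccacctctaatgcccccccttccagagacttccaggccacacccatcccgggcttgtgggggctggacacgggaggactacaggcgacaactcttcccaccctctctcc
Gata2 (chr6:88193641-88193890, plus strand): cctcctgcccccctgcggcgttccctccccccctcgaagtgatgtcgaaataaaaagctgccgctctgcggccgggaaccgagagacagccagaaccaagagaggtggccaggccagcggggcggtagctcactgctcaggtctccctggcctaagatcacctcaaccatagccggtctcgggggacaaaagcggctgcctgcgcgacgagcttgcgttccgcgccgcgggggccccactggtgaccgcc
Mef2c (chr13:83503784-83504033, plus strand): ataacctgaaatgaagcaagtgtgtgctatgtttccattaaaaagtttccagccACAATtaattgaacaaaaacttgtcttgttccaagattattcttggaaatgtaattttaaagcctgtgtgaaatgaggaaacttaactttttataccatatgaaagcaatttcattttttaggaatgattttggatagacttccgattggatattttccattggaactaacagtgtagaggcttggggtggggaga
Creb3l4 (chr3:90243513-90243762, minus strand): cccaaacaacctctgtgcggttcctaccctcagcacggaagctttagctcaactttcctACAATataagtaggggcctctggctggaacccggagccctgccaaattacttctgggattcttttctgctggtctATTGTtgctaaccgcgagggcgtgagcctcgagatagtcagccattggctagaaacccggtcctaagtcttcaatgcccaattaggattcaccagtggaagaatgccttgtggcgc

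The ACAAT core was found 2 times in the Robo4 window, beginning 225 and 214 bases before the start, 2 times in that of Creb3l4, beginning 191 and 116 bases before it, and 1 time in that of Mef2c. The windows of Tie1 and Gata2 held none, which says only that these letters are absent from these 250 bases. The Dam site GATC occurred 1 time each in the windows of Robo4, Tie1 and Gata2 and was absent from those of Mef2c and Creb3l4. Of the 1328 protein-coding genes with SOX7-alone regions and in no other list, 1086 (81.8%) had an entry in the promoter table. Searching both strands, ACAAT was found in 21.4% of these windows (19.0 to 23.9), and in 28.3% of the windows of all 27025 genes in the table. The longer core ACAATG, which contains ACAAT, was in 8.84% (7.22 to 10.7) of them and in 11.0% of all windows. For the ETS core GGAA the shares were 92.9% and 93.4%, for the longer ETS site CCGGAAGT, which contains GGAA, 4.42% (3.28 to 5.82) and 2.93%, and for GATC 39.2% and 42.0%. The table also holds genes that code for no protein. Over all protein-coding genes, of which 79.9% had an entry, too few for a check over that set, the shares were 25.9% for ACAAT, 9.68% for ACAATG and 3.84% for CCGGAAGT, the last 2 within the intervals of the genes with SOX7-alone regions. The ACAAT share of 25.9% lay above their interval. SOX7 genes with no SOX7-alone region had ACAAT in 19.5% of windows, and genes with such regions also listed by FLI1 or ERG in 17.6%. Of these 2 sets 79.2% and 78.1% had an entry. None of these shares is therefore given as particular to the genes with SOX7-alone regions in no other list. The windows of the genes in no other list had a median GC content of 58.4%, against 52.0% over all genes in the table and 55.2% over all protein-coding genes. It was 58.8% for SOX7 genes with no SOX7-alone region and 61.6% for genes with such regions also listed by FLI1 or ERG. The GC content is thus not particular to the genes in no other list. The part of base composition in the AT-rich core was not tested.

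SOX7-alone regions were narrower and less densely read than the SOX7 peaks that met a FLI1 or ERG peak. The choice of regions used the same peak calls, so these values are descriptions without a test. Their median width was 1301 bp (quartiles 951 and 1801), against 1701 bp (1151 and 2351) for the other 3652 SOX7 peaks, and each SOX7-alone region held 1 peak. They covered 9.63 Mb, and the other SOX7 peaks 7.30 Mb. The files give reads per gene, and the reads of a peak could be told for 2756 SOX7-alone regions (43.2%) and 1597 other peaks (43.7%). Among these the median was 59 reads (Poisson interval 44.9 to 76.1 for that count) in SOX7-alone regions, from 13 to 1047, against 90 reads in the others. Per kb of peak the medians were 43.8 reads (quartiles 32.5 and 63.8) in SOX7-alone regions and 54.6 reads (38.8 and 81.0) in the others. SOX7 peaks that met both FLI1 and ERG had a median of 62.1 reads per kb, those that met FLI1 53.7 and those that met ERG 52.1. The distributions overlapped widely.

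The weaker a SOX7 peak, the more often it lay alone. When the SOX7 peaks were split into 5 equal classes, in the least dense class (8.33 to 34.3 reads per kb of the assigned gene) 73.4% (71.4 to 75.3) lay alone, against 53.5% (51.3 to 55.7) in the densest class. By width the share was 76.4% in the narrowest class, up to 951 bp, and 44.9% in the widest class. A wider peak has more bases with which to meet another peak. Even in the densest class 1073 SOX7 peaks met neither FLI1 nor ERG.

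**Figure D1:**
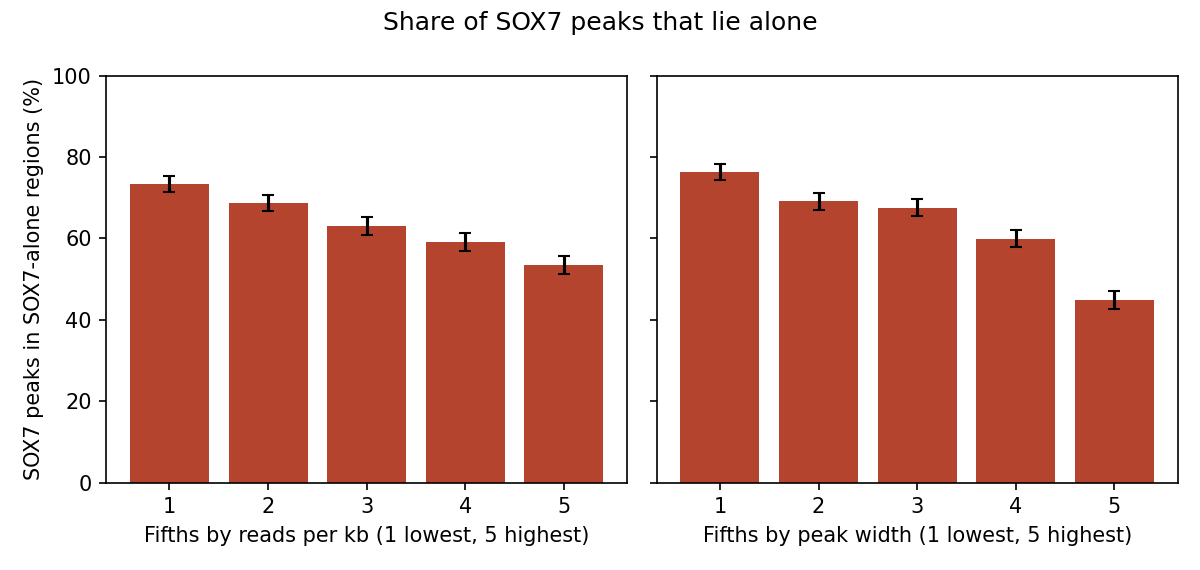
Bars show the percentage of SOX7 peaks that lay in SOX7-alone regions, for 5 equal classes of all 10029 SOX7 peaks ordered by reads per kb of the assigned gene (left) and by peak width (right). Error bars are exact 95% binomial intervals for counting error, and the lowest and highest density classes stand at 73.4% and 53.5%, the narrowest and widest at 76.4% and 44.9%.

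The densest SOX7-alone regions, among those whose reads are their own, were at genes of varied function. At Creb3l4, which encodes a membrane-bound transcription factor of the CREB3 family, the SOX7 peak (chromosome 3, 90047296 to 90048596) had 541 reads and 416 reads per kb (382 to 452), and neither FLI1 nor ERG listed the gene. The histone gene Hist1h2bh (chromosome 13, 23634053 to 23634903) followed with 345 reads and 405 per kb (364 to 451), 5730422E09Rik with 494 reads and 395 per kb, and Gm13403 with 316 reads and 371 per kb. Chst5, which encodes a sulfotransferase, had 310 reads and 364 per kb, and its nearest FLI1 peak was 1444 bp away. At the remaining genes, a 7SK RNA gene, Nptn (an adhesion molecule of neurons), Slc12a2 (a sodium, potassium and chloride cotransporter), U2af1 (a splicing factor) and Syvn1 (a ubiquitin ligase of the endoplasmic reticulum), the density was between 281 and 348 reads per kb. Of these 10 genes 6 were in no other list, and Chst5, Slc12a2, Syvn1 and 5730422E09Rik were also listed by FLI1 through other peaks. Hist1h2bh and the RNA genes 7SK, U1 and U6 have near-identical copies, so where their reads came from is uncertain. The widest SOX7-alone regions were at Fam198b (8851 bp), Cdc7 (8801 bp, 361 reads and 41.0 reads per kb), Cntnap2 (7101 bp), a U1 RNA gene (6501 bp) and 2010109A12Rik together with Ccni (6451 bp, 258 reads and 40.0 per kb).

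The distance from SOX7-alone regions to ETS factor peaks ranged from 3 bp to 2513 kb. The median distance to the nearest FLI1 or ERG peak was 20.3 kb (quartiles 7.28 and 51.8), and the nearest was a FLI1 peak for 94.4% of the regions. The FLI1 list is also the longest, with 16834 peaks against 1588 for ERG. Of the 6377 regions 214 (3.36%) had such a peak within 1000 bp, 2053 (32.2%) within 10 kb, and 785 (12.3%) had none within 100 kb. Among regions with reads of their own, the median was 41.2 reads per kb within 1000 bp (81 regions), 44.3 from there to 10 kb (582), 44.8 from 10 to 100 kb (1609) and 39.3 beyond 100 kb (484). Just inside the rule were regions at AC113291.1, Ppm1k, AI661453, Rhoj and Bcas3, at 3, 4, 5, 9 and 14 bp from a FLI1 peak. Just outside it were SOX7 peaks at Gm8730, Ptprk, Ero1l, Prkag2 and Aff1, which shared 7, 13, 15, 17 and 35 bp with a peak of another factor. Few peaks stood at this edge: 28 SOX7-alone regions had a distance under 100 bp, and 15 other SOX7 peaks an overlap under 100 bp. The farthest regions were a pair at Cdh7, a cadherin gene, at 2513 and 2422 kb from the nearest FLI1 peak, followed by regions at a U6 RNA gene (2204 kb), Dsel (2101 kb) and a U1 RNA gene (2055 kb).

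**Figure D2:**
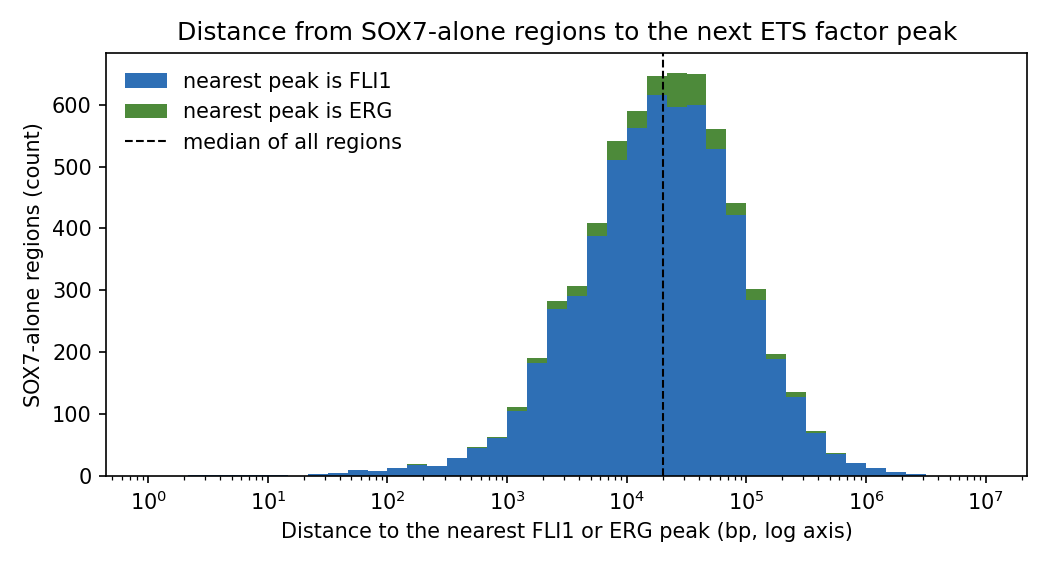
Histogram of the distance from each of the 6377 SOX7-alone regions to the nearest FLI1 or ERG peak in bp, on a log axis, coloured by the factor of that peak. Distances centre on the dashed median at 20251 bp, and FLI1 is the nearest in 6022 regions.

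On chromosome X, 480 of 612 SOX7 peaks lay alone, a share of 78.4% (75.0 to 81.6), against 62.6% (61.6 to 63.6) on the autosomes. The single autosomes ranged from 58.5% on chromosome 19 to 65.3% on chromosome 10, so chromosome X stood above each of them. It held 7.53% of SOX7-alone regions and 3.61% of the other SOX7 peaks, and also 3.93% of FLI1 and 4.16% of ERG peaks. The FLI1 list had 1.08 peaks per SOX7 peak on chromosome X and between 1.44 and 1.97 on the autosomes. SOX7-alone regions on chromosome X had a median of 27.3 reads per kb (223 regions with reads of their own), against 45.2 on the autosomes (2533 regions). The other SOX7 peaks on chromosome X were not set beside them, so the lower density is not given as particular to SOX7-alone regions. Since SOX7 and the ETS factors had different lines and control libraries, the factor cannot be told apart from these here either. An example, picked once its values were known, is Pola1, the catalytic subunit of DNA polymerase alpha, which had 5 SOX7-alone regions between 90570421 and 90853621 on chromosome X, with 210 reads and 20.4 reads per kb in all, and was in no other list.

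**Figure D3:**
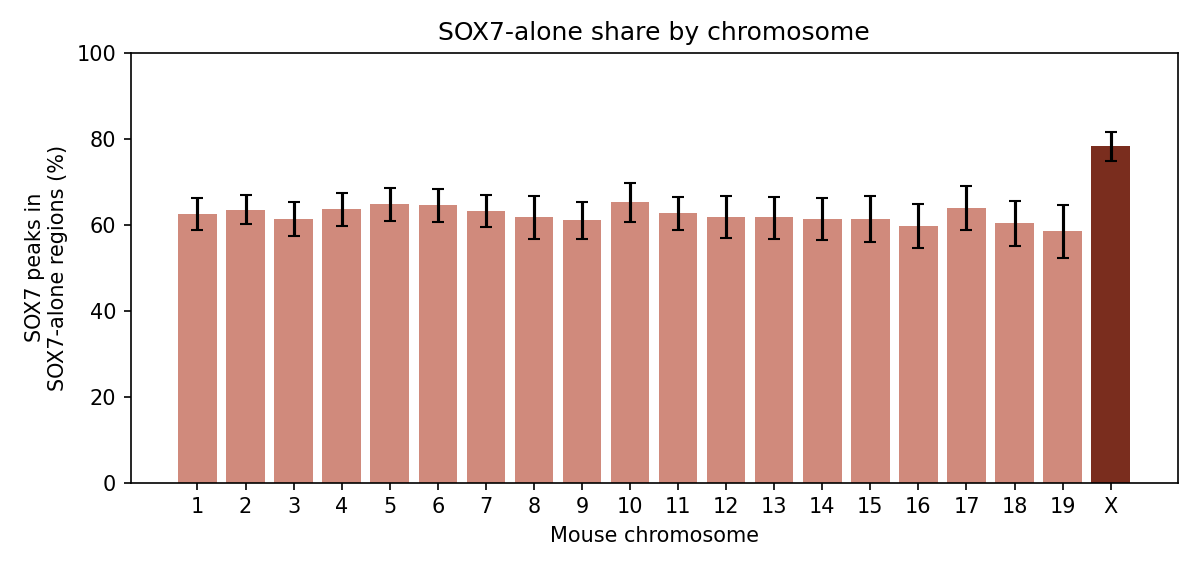
Bars show the percentage of SOX7 peaks of each mouse chromosome that lay in SOX7-alone regions, with exact 95% binomial intervals for counting error. Chromosome X reaches 78.4%, while the autosomes lie between 58.5% and 65.3%.

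The regions were assigned to 4630 genes, 70.9% of the 6530 genes of the SOX7 list (72.1% of its protein-coding genes). For 3478 of them (75.1%) every SOX7 peak lay alone, and the other 1152 also had a SOX7 peak that met FLI1 or ERG. Although no region held an ETS peak, many of the genes were listed for FLI1 through other peaks: 2687 of 4630 (58.0%, 56.6 to 59.5), with 69.1% among all SOX7 genes. ERG listed 524 of them (11.3%), with 14.8% among all SOX7 genes. Both factors listed 474, and 1893 genes (40.9%, 39.5 to 42.3) were in no other list. A lower share than among all SOX7 genes follows in part from the rule, which leaves out every peak that met another factor. Among all 21887 protein-coding genes of the gene table, FLI1 listed 35.3% and ERG 5.76%. Where FLI1 had a peak at the same gene, it lay at a median of 13.4 kb from the SOX7-alone region (4287 regions), and within 10 kb for 41.8%. Regions with no gene in another list lay at a median of 57.9 kb from the nearest FLI1 or ERG peak (2027 regions), against 12.3 kb for the 4350 others. The latter have a FLI1 or ERG peak assigned to the same gene by definition, so this difference follows in part from the split. Lists were matched by Ensembl identifier, the SOX7 list gives some shared genes another biotype or symbol than the other lists do, and 119 of the 1893 genes have their symbol in another list under another identifier, names of repeated RNA genes such as U6 among them.

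Most genes had 1 SOX7-alone region (3451 of 4630, 74.5%), and 433 had 3 or more. The highest number was 16, at Magi1, a scaffold protein of cell junctions, where 21 SOX7 peaks with 2260 reads lay among 14 FLI1 peaks with 2501 reads on chromosome 6. Its SOX7-alone regions ran from 93599734 to 94262434 and stood between 404 bp and 52.3 kb from the nearest FLI1 peak. Etl4 had 13 SOX7-alone regions among 17 SOX7 peaks, Arfip1 12 of 19, Utrn (utrophin) 11 of 13 and Aff3 10 of 13, and all were also listed by FLI1. At Etl4 1 of these regions, and at Arfip1 several, were also assigned to another gene. Of the 1893 genes in no other list 49 had 3 or more regions, with a maximum of 6 at Gab2, an adaptor protein of receptor tyrosine kinase signalling, picked like Prdm1 with its values known. There the regions held 773 reads at 71.9 reads per kb (66.9 to 77.1) and the nearest FLI1 peak was 69.5 kb away. Prdm1, which encodes the transcriptional repressor BLIMP1, had 4 regions with 658 reads at 58.7 per kb and no FLI1 or ERG peak within 158 kb. These counts were not set against gene length.

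Gene lists of vessel, blood and other lineages were set beside the share of all protein-coding genes with a SOX7-alone region, 16.7% (3648 of 21887), and the share with such a region and no listing by FLI1 or ERG, 6.07%. The 14 lists hold 289 genes, of which 95 had a SOX7-alone region (32.9%, 27.5 to 38.6). Of these 95 genes 77 (81.1%) were also listed by FLI1, with 62.6% among all protein-coding genes with such a region. With or without such a region, FLI1 listed 31 of 37 guidance and 24 of 30 endothelial identity genes. It also listed 8 of 16 housekeeping and 4 of 12 endoderm and liver genes, and 35.3% of all protein-coding genes. The 81.1% is therefore not given as particular to list genes with a SOX7-alone region. In no other list were 17 of the 95 (17.9%, 10.8 to 27.1), with 1328 of 3648 among all protein-coding genes with such a region. As a part of the 289 genes, these 17 were not above the 6.07% of all protein-coding genes. The shares were 54.1% for guidance receptors and ligands (20 of 37), 50.0% for arterial and Notch genes (10 of 20), 43.8% for housekeeping genes (7 of 16), 43.3% for BMP and TGF-beta genes (13 of 30) and 40.0% for endothelial identity genes (12 of 30). Housekeeping genes, which every cell uses, thus stood among the vessel lists. The binomial intervals of these 5 lists overlap, for instance 36.9 to 70.5 for guidance and 19.8 to 70.1 for housekeeping genes. Among list genes with any SOX7 peak, 20 of 22 guidance, 10 of 12 arterial and Notch and 7 of 10 housekeeping genes had a SOX7-alone region. So had 13 of 22 BMP and TGF-beta and 12 of 20 endothelial identity genes, with 72.1% among all SOX7 protein-coding genes. SOX7 listed 23.0% of all protein-coding genes, so a share above 16.7% is not by itself particular to SOX7-alone regions. Lower shares were found for blood genes (34.8%, 8 of 23), ETS family genes (34.6%, 9 of 26), neural genes (26.7%, 4 of 15), Wnt pathway genes (26.3%, 10 of 38), endoderm and liver genes (25.0%, 3 of 12) and pluripotency genes (21.4%, 3 of 14). SOX family genes (15.8%, 3 of 19), venous and lymphatic genes (11.1%, 1 of 9) and cardiac and smooth muscle genes (9.52%, 2 of 21) stood below the 16.7% of all protein-coding genes, with wide intervals that reached above it.

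**Figure D4:**
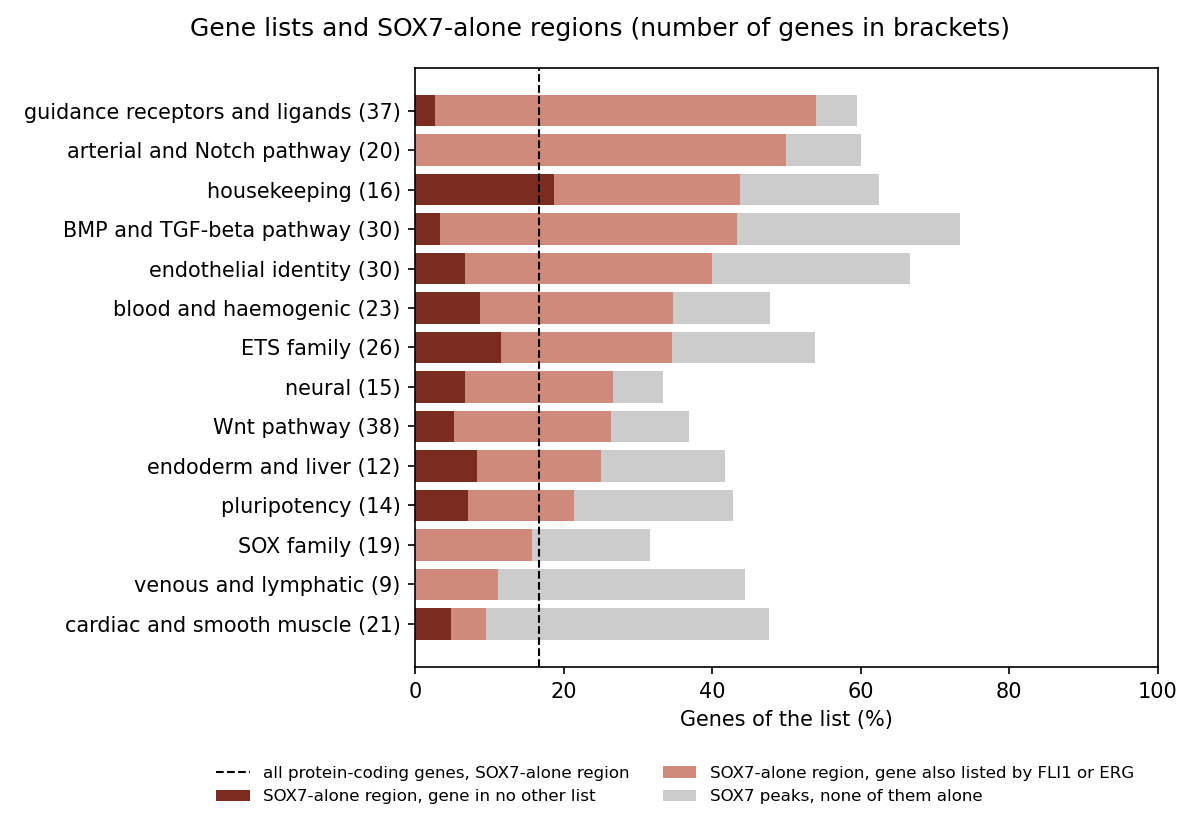
Stacked bars show, for each gene list, the percentage of its genes with a SOX7-alone region and no FLI1 or ERG listing (dark), with such a region and a listing by FLI1 or ERG (light red), and with SOX7 peaks of which none lay alone (grey). The dashed line marks the 16.7% of all protein-coding genes with a SOX7-alone region, and the guidance list lies highest at 54.1%.

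Among endothelial identity genes, Tie1 and Robo4 were the members in no other list. Tie1, an orphan receptor of the angiopoietin pathway, had 3 SOX7 peaks on chromosome 4 between 118137076 and 118163576, all alone, with 352 reads at 47.9 reads per kb (43.0 to 53.1). The peak at 118161726 to 118163576, with 144 of these reads, was also assigned to another gene. FLI1 peaks assigned to other genes lay on both sides of the 3 SOX7 peaks, the nearest 21.7 kb away. Robo4, an endothelial receptor that stabilises vessels, had 1 SOX7 peak at 37208804 to 37209604 on chromosome 9, with 52 reads at 64.9 per kb (48.5 to 85.1), and a FLI1 peak 6.40 kb away. Kdr, the main VEGF receptor, had 4 SOX7 peaks with 995 reads at 79.9 per kb, and 3 FLI1 peaks with 810 reads at 93.6 per kb. Reads are not scaled to library size, so those of different factors cannot be compared, here or at other genes. At Kdr 2 SOX7 peaks lay alone, at 76334105 to 76335605 and at 76353305 to 76354555 on chromosome 5, the second 266 bp from a FLI1 peak. Sox7 itself had 1 SOX7-alone region (chromosome 14, 64570143 to 64570993), 5.48 kb from an ERG peak, beside a second SOX7 peak that met the other factors.

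Among further members of this list, Fli1 carried 9 SOX7 peaks with 1520 reads at 66.8 per kb and 7 FLI1 peaks with 1416 reads, and 5 of the SOX7 peaks lay alone between 32303604 and 32367254 on chromosome 9, at 503 bp to 11.3 kb from the nearest FLI1 peak. Ets1 had 2 SOX7-alone regions among 7 SOX7 peaks. Flt1, a VEGF receptor outside the rule for named genes and picked with its values known, showed 5 SOX7 peaks with 324 reads at 51.8 per kb, all alone. Its 2 FLI1 peaks, also with 324 reads, lay at least 12.3 kb from them. Pecam1 and Cdh5, adhesion molecules of endothelial junctions likewise chosen after their values were seen, had 2 SOX7-alone regions each and were listed by FLI1.

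**Figure D5:**
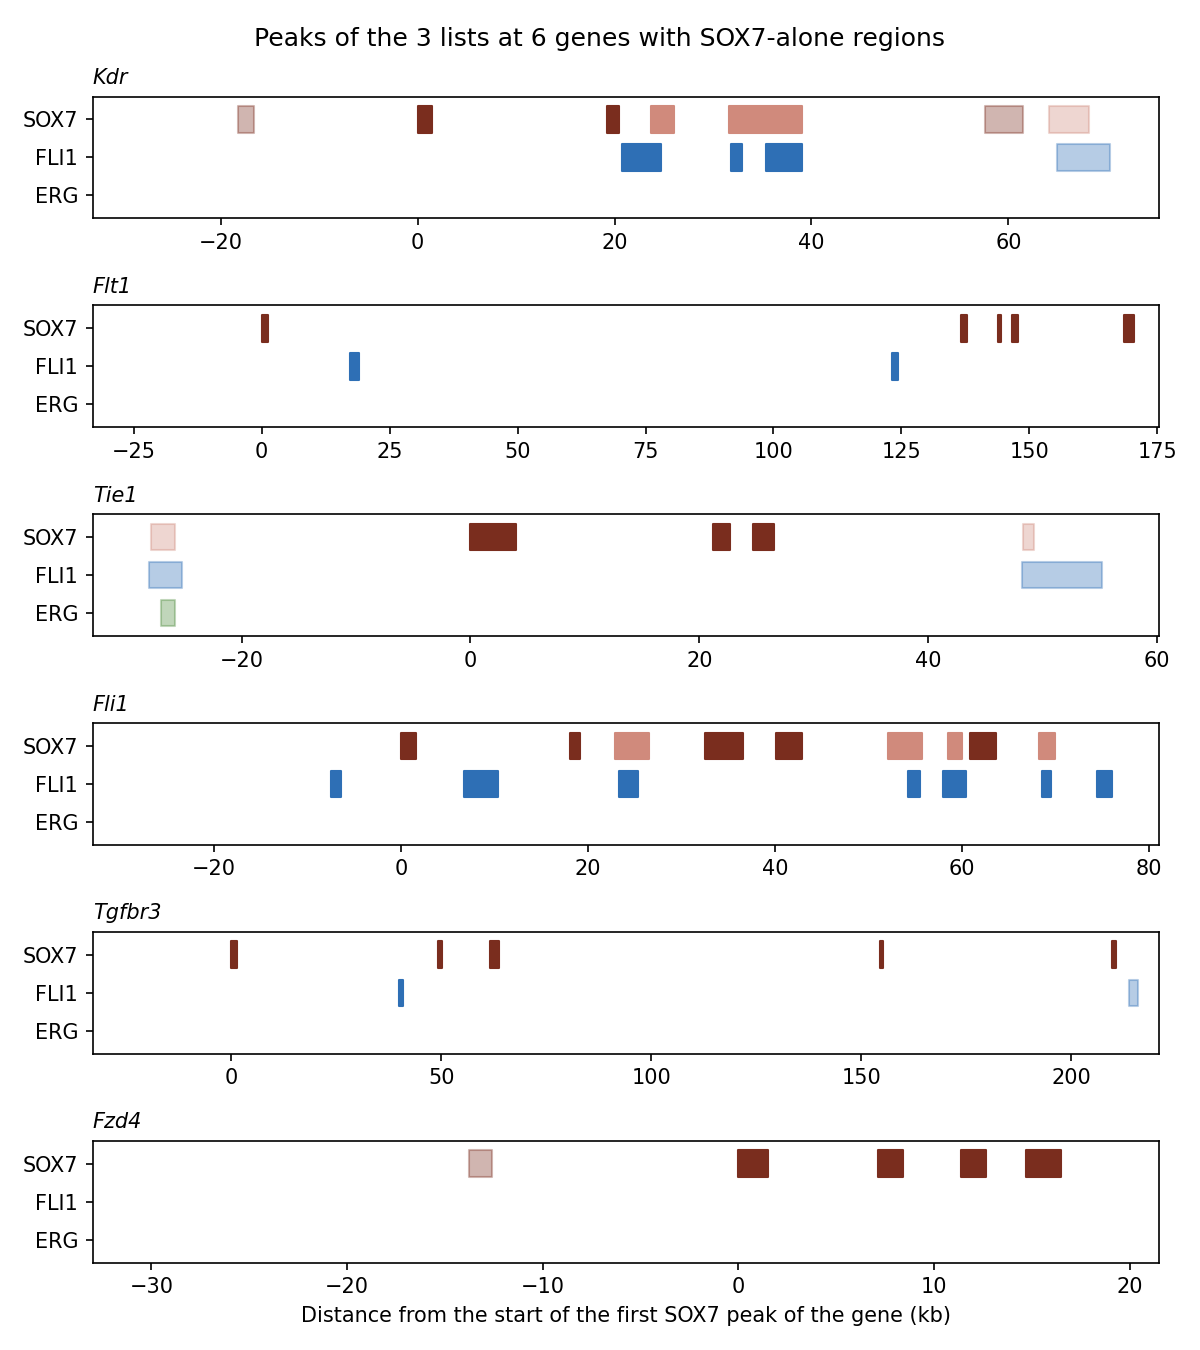
Peaks of the 3 lists at 6 genes, by distance in kb from the start of the first SOX7 peak of the gene, with SOX7-alone regions in dark red, other SOX7 peaks in light red, FLI1 in blue and ERG in green; pale bars are peaks assigned to other genes. At Flt1, Tie1, Tgfbr3 and Fzd4 all SOX7 peaks of the gene stand alone, at Kdr the 2 that stand alone lie on one side of the 2 shared ones, and at Fli1 the 5 that stand alone are interspersed with shared ones.

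All 10 arterial and Notch genes with SOX7-alone regions were also listed by FLI1 or ERG, 9 of them by FLI1. Of all 20 genes of that list FLI1 listed 15. Nrp1, a coreceptor for VEGF and semaphorins, had 2 SOX7 peaks with 236 reads at 115 per kb (101 to 131), and the one that lay alone (chromosome 8, 130973791 to 130974691) was 12.3 kb from an ERG peak. Hey1, a repressor acting downstream of Notch, had 1 SOX7 peak with 84 reads at 105 per kb (83.6 to 130) at 8666046 to 8666846 on chromosome 3, 1308 bp from a FLI1 peak, and 93 reads in 2 FLI1 peaks. Acvrl1, the receptor ALK1 of endothelial cells, had 1 SOX7 peak with 140 reads at 87.5 per kb (chromosome 15, 100981879 to 100983479) and 1 ERG peak with 38 reads at 21.6 kb from it, and FLI1 did not list it. Gja4, a gap junction protein of arteries, had 215 reads at 71.6 per kb in 1 SOX7 peak, 1965 bp from a FLI1 peak. Of the venous and lymphatic genes Nrp2, a coreceptor for lymphatic VEGF, had 2 SOX7-alone regions among 6 SOX7 peaks.

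The guidance list shares Nrp1, Nrp2, Robo4, Efnb2 and Unc5b, all with SOX7-alone regions, with these lists. Of the 20 guidance genes with SOX7-alone regions 19 were also listed by FLI1, and of all 37 guidance genes 31. Slit1, a ligand of ROBO receptors, had 232 reads at 69.2 per kb over 2 SOX7 peaks, of which 1 lay alone. Epha4, an ephrin receptor, had 3 SOX7 peaks, all alone, with 242 reads at 66.3 per kb on chromosome 1 between 77495008 and 77538058, and 4 FLI1 peaks with 886 reads.

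Among blood genes, Gata2 and Myb were in no other list. Gata2, needed by blood stem cells, had 1 SOX7 peak with 135 reads at 75.0 per kb (62.8 to 88.7) at 88141034 to 88142834 on chromosome 6, 34.7 kb from the nearest FLI1 peak. Myb, needed for definitive blood formation, had 2 SOX7-alone regions on chromosome 10, at 20834108 to 20835358 with 71 reads and at 20865108 to 20867058 with 159 reads. The second of these was also assigned to another gene. Nfe2, a factor of the red cell and platelet lineages, had 482 reads at 84.5 per kb over 3 SOX7 peaks, of which 1 lay alone. Runx1, required for blood to arise from endothelium, had 1 SOX7-alone region among 4 SOX7 peaks, and 10 FLI1 peaks with 2669 reads. Lmo2 had 2 such regions, at 249 and 1049 bp from FLI1 peaks, and the one at 249 bp was also assigned to another gene. Kit, a sort marker of these cells, had 2 SOX7-alone regions with 147 reads at 43.9 per kb.

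Of the ETS family, Elf1, Ets2 and Etv4 had 1 SOX7-alone region each and were in no other list. Elf1, an ETS factor expressed in blood and vessels, had 114 reads at 127 per kb (104 to 152) at 79921243 to 79922143 on chromosome 14. Etv4 had 69 reads at 49.3 per kb and Ets2 50 reads at 29.4 per kb, at percentile 13.1 of the SOX7 list. Their nearest FLI1 peaks were 65.9, 56.1 and 102 kb away. Elk3, a repressor expressed in endothelium, had 3 SOX7 peaks, all alone, with 292 reads at 50.3 per kb, and Elf2 had 2 such regions among 4 SOX7 peaks. Of the SOX family Sox5 had 3 SOX7 peaks, all alone, with 232 reads at 70.2 per kb, and Sox6 3 among 7, and both were listed by FLI1. At Elk3 and at Sox5, 1 of the SOX7-alone regions was also assigned to another gene.

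Among the BMP and TGF-beta genes 11 of 13 with SOX7-alone regions were also listed by FLI1, and 23 of all 30. Tgfbr3, the coreceptor betaglycan, had 5 SOX7 peaks, all alone, with 360 reads at 58.5 per kb (52.6 to 64.9) between 107510705 and 107721405 on chromosome 5, and 1 FLI1 peak with 59 reads. The ligand genes Bmp6 and Bmp7 had 1 such region each, among 2 SOX7 peaks with 88.9 and 66.2 reads per kb. Id2, an inhibitor of basic helix-loop-helix factors, was in no other list, and its SOX7 peak with 34 reads at 16.6 per kb stood at percentile 0.482 of the SOX7 list. In the Wnt pathway the receptor gene Fzd4, known for its part in retinal vessels, had 4 SOX7 peaks, all alone and in no other list, with 182 reads at 31.1 per kb (26.7 to 35.9) between 96559498 and 96575998 on chromosome 7. Its nearest FLI1 peak was 39.1 kb away. The ligand gene Wnt5a had 1 region with 68 reads at 42.5 per kb and was in no other list. That region was also assigned to another gene. Fzd2 had 153 reads at 105 per kb and Wnt8a 89 reads at 93.6 per kb, and both were listed by FLI1, as were Rspo3 and Tcf7l1.

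Genes of other lineages were among the members too. Mef2c, a factor of heart and vessel development, had 2 SOX7-alone regions with 74 reads at 37.9 per kb, at least 109 kb from a FLI1 or ERG peak, and Gata6 had 1 among 3 SOX7 peaks. In no other list were also the pluripotency gene Lin28a (78 reads, 55.7 per kb), the neural gene Olig2 (64 reads, 58.1 per kb) and the liver gene Ttr (39 reads, 37.1 per kb). Nes, which encodes the filament protein nestin, had 127 reads at 121 per kb in 1 SOX7 peak 2608 bp from a FLI1 peak. Pdx1, a pancreas regulator, had 80 reads at 99.9 per kb, and Pou5f1, which encodes the pluripotency factor OCT4, 79 reads at 47.9 per kb. Esrrb, Pax6 and Neurog2, also of these lists, had 1 SOX7-alone region each, at 31.6 to 54.9 reads per kb over their SOX7 peaks, and like Nes, Pdx1 and Pou5f1 they were listed by FLI1. Of the housekeeping genes Ppia (176 reads, 81.8 per kb) and Polr2a (290 reads, 54.7 per kb) were in no other list. Tfrc had 3 SOX7-alone regions with 310 reads at 56.9 per kb, while Actb, Ywhaz and Tbp had 1 each and were, like Tfrc, listed by FLI1. The region at Ywhaz was 67 bp from a FLI1 peak, and that at Tbp was also assigned to another gene. Pseudogene copies of Ppia and Actb make their reads uncertain.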

How the data were processed

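Files of 3 DamID libraries (SOX7-Dam, FLI1-Dam, ERG-Dam) were used. Per the file headers, the authors deposited for each gene a read count, a coverage signal (reads per kb of peak) and the positions of its peaks. The deposited signal equals the count times 1000 over the summed peak length, both ends included, with a largest difference of 0.005, and is scaled neither to library size nor to the control. The submitters' processing notes name mm9 as the build. Aligner, peak caller, threshold and the rule assigning peaks to genes were not given in the sources used here, and library depth is not known. The listed peaks hold 974550 SOX7, 2665309 FLI1 and 135623 ERG reads.

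The reads of a single peak were taken from genes with 1 peak, or by difference (82 SOX7 peaks). For percentiles and density classes a peak took the density of its gene with the fewest peaks. Genes were matched between lists by Ensembl identifier, and to 21887 protein-coding genes of a RefSeq table (GRCm38.p6, names and order only) by symbol, which recognised 96.5% of SOX7 protein-coding genes. Distances are from edge to edge. Amplified reads have no molecular identifiers. Merging, distances and read differences were tested on simulated lists. Python 3.11.15, pandas 2.3.3 and scipy 1.17.1 were used. The regions and gene lists were chosen with earlier results of these data known. Named were the 10 densest and 5 widest regions, the 5 genes with most regions, the regions nearest to and farthest from other peaks, the longest runs, list members in no other list and per list the 4 densest others; exceptions are marked, and some named genes are not reported here. Alternatives changed what counts as shared, the parts of the lists used and the strength value.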

Additional observations from a re-analysis of the deposited data

How the results depend on the processing

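No paired analysis was possible because each group has 1 library. Of 75 values recomputed under 10 other settings, 44 moved by less than their counting interval or 1.5 times and 31 moved further. A change of sign was possible only for the percentile difference in density and the difference between chromosome X and autosomes, and 0 of these values changed sign. Counts, shares, distances and widths cannot be negative. Merging peaks within 1000 bp left 61.5% of SOX7 peaks alone at a median of 21559 bp from FLI1 or ERG. Merging within 10000 bp left 3899 regions, 41.7% of peaks, 39249 bp, 47.9% of genes also listed by FLI1 and 62 genes of the lists. Calling a peak shared only when 50% of it was covered gave 70.4% of peaks, 60.3% of genes with FLI1, 16347 bp and a width of 1401 bp. Leaving out ERG gave 64.8% of peaks, leaving out chromosomes X and Y 62.6%, and using protein-coding genes only 62.2% of genes with FLI1. The denser 50% of FLI1 and ERG peaks gave 74.9% of peaks, 24.6% of genes with FLI1, 3819 genes in no other list, 83516 bp, a percentile difference in density (alone minus other) of -24.9 against -13.2 in the main setting, and 21.1 percentage points between chromosome X and autosomes, against 15.8. The denser 50% of SOX7 peaks gave 2866 regions, 57.1% of peaks, 2064 genes, 809 of them in no other list, 59.8% with FLI1, 48 genes of the lists, 18232 bp, 1251 bp, -5.78 percentile points and 23.9 percentage points for chromosome X. Peaks with reads of their own gave -19.7 percentile points. Shorter lists leave fewer peaks to meet, by construction. The chromosome X alternatives were chosen after seeing the data. Depth limits the weak regions: a peak missing from a list can hold reads below the authors' threshold.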

Other observations

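Of the 1893 genes with SOX7-alone regions in no other list 1389 were protein-coding. This was a lower share than among all genes with SOX7-alone regions (3778 of 4630) or all SOX7 genes (5243 of 6530). Of genes with SOX7-alone regions, the share in no other list was 36.8% for protein-coding genes (1389 of 3778), 41.1% for lincRNA genes (69 of 168) and 53.7% for processed transcripts (110 of 205). It was 71.2% for snoRNA genes (52 of 73), 68.8% for snRNA genes (55 of 80), 67.0% for pseudogenes (152 of 227) and 58.8% for miRNA genes (30 of 51). For genes of miscellaneous RNAs it was 76.9% (20 of 26), and for rRNA genes 66.7% (10 of 15). Many genes of small RNAs and pseudogenes have near-identical copies, and the SOX7 list gives some genes another biotype than the other lists do, so these shares are uncertain. Of the 51 miRNA genes 9 carry a miRNA name in the files, and for 5 of them in no other list, chosen after their values were seen, the mature RNA is shown, with its seed (bases 2 to 8) in capitals, from RefSeq (GRCm38.p6).
mmu-miR-363-3p: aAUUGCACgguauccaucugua
mmu-miR-351-5p: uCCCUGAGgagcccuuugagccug
mmu-miR-129-5p: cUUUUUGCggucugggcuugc
mmu-miR-296-5p: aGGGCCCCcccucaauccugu
mmu-miR-30a-5p: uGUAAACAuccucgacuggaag

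These 5 miRNAs share no seed. Mir363 and Mir351 lie on chromosome X, with 79 reads at 75.2 reads per kb (59.5 to 93.7) in a region from 50072221 to 50073271 (mm9) and 85 reads at 77.2 per kb (61.7 to 95.5) in a region from 50404571 to 50405671. Mir129-2 had 39 reads at 45.8 per kb and Mir296 30 reads at 30.0 per kb, both on chromosome 2, and Mir30a 79 reads at 26.8 per kb on chromosome 1. Each of these regions was the only SOX7 peak of its gene.

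Some SOX7-alone regions followed each other with no FLI1 or ERG peak between them. Of the 6377 regions 1538 (24.1%) were in runs of 3 or more, and 50 runs held 5 or more, 10 of them on chromosome X. Members were chosen by the same absence of FLI1 and ERG peaks, so runs follow in part from the rule. Chromosome X also had fewer FLI1 peaks per SOX7 peak (1.08) than any autosome. Whether the regions cluster beyond this was not tested. The longest run held 11 regions over 2016 kb of chromosome 4 (3606026 to 5621826), from Gm17726 by way of Lyn, Mos and Plag1 to Fam110b. The next held 9 regions each on chromosome X, over 294 kb at Satl1, 2010106E10Rik, Zfp711 and Pof1b and over 428 kb at Zcchc16, U11 and Lhfpl1.

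The next gene along the chromosome was often listed by another factor. Of 1328 protein-coding genes with SOX7-alone regions and in no other list, 884 (66.6%, 64.0 to 69.1) had a neighbouring protein-coding gene, in the order of the RefSeq gene table, that FLI1 or ERG listed. Among 12586 protein-coding genes in none of the 3 lists it was 43.8% (42.9 to 44.7). The share was not computed over all protein-coding genes, nor over the other SOX7 genes. A listed neighbour is therefore not given as particular to genes with SOX7-alone regions in no other list.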
